A study of Mus musculus with 20 samples.

Results

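Trpv2, Alox5ap, Themis2 and Dock2 are 4 genes of leukocytes, picked from the 14633 genes of a mouse tumor expression table (14385 of them tested). They were chosen by their measured values in these same libraries: the level was higher with the EZH2 inhibitor GSK343 under a control antibody, and that difference was absent under an antibody against CXCL10. Their group differences are therefore a description, and nothing is read from a test of them. All 4 passed the filter on low values.

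The tumors were HEPA1-6, a mouse hepatoma line, placed under the skin of C57/BL6 mice and grown for 4 weeks. The 4 groups were anti-CXCL10 antibody plus GSK343 (n = 5 libraries), anti-CXCL10 antibody alone (n = 5), control antibody plus GSK343 (n = 5) and control antibody alone (n = 4, replicates 1, 2, 3 and 5). Control antibody replicate 4 is not analysed here. No genotype other than the strain, and no dose, antibody clone, dosing schedule or mouse age, is given in the labels. All 19 libraries were made from poly-A RNA of whole tumor, which holds hepatoma cells together with whatever host cells entered it. The series text gives 3 replicates per condition while the labels number 5, and nothing says which tumors came from separate animals, so the spread between libraries may be technical in part.

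EZH2 is the methyltransferase of a Polycomb repressive complex, which marks histones at silenced genes, and GSK343 blocks its activity. CXCL10 is a chemokine that is induced by interferon and draws T cells and NK cells through the receptor CXCR3. The 4 genes serve different tasks in the white blood cells that such signals can recruit. Trpv2 encodes a calcium-permeable cation channel, which mouse macrophages need for efficient phagocytosis. Alox5ap encodes a membrane protein of the nuclear envelope (FLAP) that hands arachidonic acid to the lipoxygenase of leukotriene synthesis. Themis2 encodes an adaptor that works downstream of the B cell antigen receptor and of Toll-like receptors in macrophages. Dock2 encodes an exchange factor that loads the GTPase Rac in blood cells and drives their movement toward chemokines.

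The genes lie apart in the genome. On build GRCm38, Trpv2 (ENSMUSG00000018507) spans chromosome 11 from 62574486 to 62600515 on the plus strand. Dock2 (ENSMUSG00000020143) is on the minus strand of the same chromosome, from 34226815 to 34783892. Alox5ap (ENSMUSG00000060063) runs from 149265058 to 149288045 on the plus strand of chromosome 5. Themis2 (ENSMUSG00000037731) runs from 132781843 to 132796387 on the minus strand of chromosome 4. None of the 4 overlaps another gene of the deposited table, but the GENCODE M21 annotation places 2 other genes over each of Alox5ap and Dock2 (Gm19719 and n-R5s180 for Alox5ap, 4930403D09Rik and Fam196b for Dock2). The rule by which the authors assigned reads of overlapping genes is not known.

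The 250 bases before the transcript start are shown for the 3 genes that have a RefSeq promoter entry (build GRCm38.p6), because these genes were high in the same libraries. The sequences are the upstream part of the windows chr11:62574236-62574485 (plus strand) for Trpv2, chr4:132796365-132796614 (minus strand) for Themis2 and chr11:34783906-34784155 (minus strand) for Dock2, each read 5′ to 3′ on the strand of the gene. Capitals mark matches to any of 7 motifs searched on both strands.
Trpv2: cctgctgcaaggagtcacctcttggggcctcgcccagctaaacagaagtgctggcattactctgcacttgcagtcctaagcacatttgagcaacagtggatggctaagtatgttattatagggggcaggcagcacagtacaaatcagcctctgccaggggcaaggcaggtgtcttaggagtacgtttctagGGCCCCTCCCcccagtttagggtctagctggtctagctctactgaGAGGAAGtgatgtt
Themis2: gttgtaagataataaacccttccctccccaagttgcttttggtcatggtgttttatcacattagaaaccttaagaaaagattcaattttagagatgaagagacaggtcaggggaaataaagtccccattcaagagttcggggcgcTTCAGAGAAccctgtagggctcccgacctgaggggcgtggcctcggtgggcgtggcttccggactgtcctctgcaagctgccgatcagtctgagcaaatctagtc
Dock2: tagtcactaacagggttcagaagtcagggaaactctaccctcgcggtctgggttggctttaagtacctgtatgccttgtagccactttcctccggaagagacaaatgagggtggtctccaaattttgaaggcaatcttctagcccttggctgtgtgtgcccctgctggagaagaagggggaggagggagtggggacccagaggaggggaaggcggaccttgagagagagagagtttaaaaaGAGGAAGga
The letters GAGGAAG stand for a site of the PU.1 type in the ETS family of transcription factors, and TTCNNNGAA for the gamma-activated site of interferon signaling. The motif TGTGGT is that of RUNX factors in blood cells, and TTGCNNCAA that of C/EBP factors in myeloid and liver cells. The core promoter element called the TATA box was searched as TATAAA. The interferon-stimulated response element was searched as a pair of GAAA with 2 bases between. The NF-kappaB site was searched as GGGA, any 4 bases and then CC. No matches overlapped each other.

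Trpv2 and Dock2 each held GAGGAAG close to the transcript start, at bases 8 to 14 upstream in Trpv2 and at bases 3 to 9 upstream in Dock2. PU.1, encoded by Spi1, is a transcription factor of myeloid and B cells, and 10.6% of the 32851 mouse promoter windows of this length held the same letters. Themis2 had no GAGGAAG and held a gamma-activated site at bases 97 to 105 upstream. The pattern searched for it, TTCNNNGAA, is the same on both strands and was present in 7.02% of windows. Trpv2 also had an NF-kappaB match on the opposite strand at bases 50 to 59 upstream, as did 17.6% of windows. The other motifs were not found in the 3 sequences (2.98% of windows held the interferon-stimulated response element, 14.0% the RUNX motif, 1.74% the C/EBP motif and 12.4% the TATA box). RefSeq lists 2 further Trpv2 windows, of which the second overlaps the first and holds the same matches and the third holds an NF-kappaB match alone.

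**Figure D1:**
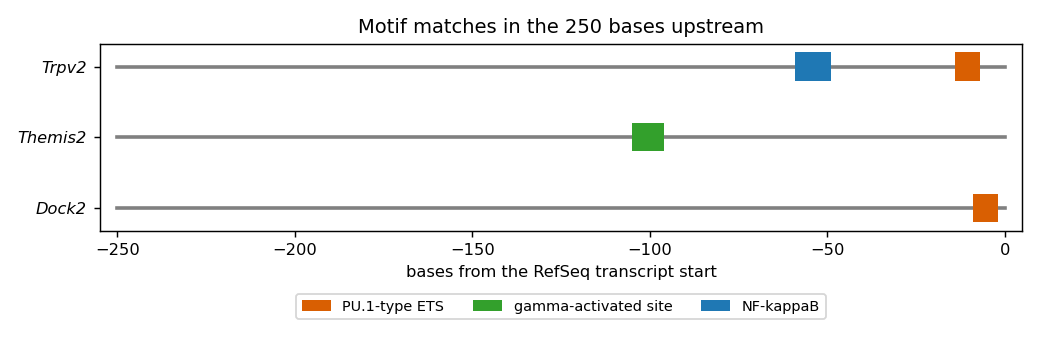
Motif matches (coloured boxes) along the 250 bases upstream of the RefSeq transcript start (0 on the horizontal axis, in bases) of Trpv2 (its first window), Themis2 and Dock2. The GAGGAAG boxes of Trpv2 and Dock2 lie within 14 bases of the start, and the gamma-activated site of Themis2 lies at 97 to 105 bases.

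Levels are given as FPKM (fragments scaled by gene length and sequencing total; a unit read from the values, as no label names it), which allows genes to be compared per length, and replicates are listed in number order. Averaged over all libraries, Alox5ap was the most abundant of the 4 at 13.0 FPKM, a level above that of 58.6% of tested genes. Themis2 followed at 6.0 FPKM (percentile 37.7), Trpv2 at 3.92 FPKM (27.3) and Dock2 at 3.21 FPKM (23.1). The hepatoma transcripts Alb and Afp were far higher in every group (mean Alb 2220 to 3580 FPKM, mean Afp 1740 to 2620 FPKM), and the pan-leukocyte antigen gene Ptprc (CD45) averaged 9.29 to 20.4 FPKM.

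Alox5ap, the leukotriene synthesis gene, had 8.10, 10.5, 9.63, 7.28 and 7.50 FPKM with anti-CXCL10 plus GSK343, and 9.84, 6.96, 8.79, 11.1 and 6.63 FPKM with anti-CXCL10. It had 26.1, 21.6, 24.7, 27.1 and 23.6 FPKM with control antibody plus GSK343, and 6.56, 7.96, 14.1 and 7.93 FPKM with control antibody. The 5 libraries of control antibody plus GSK343 lay above all 14 others, and the other groups overlapped. Mean FPKM was 8.61 ± 1.42 with anti-CXCL10 plus GSK343 (SD, n = 5), 8.66 ± 1.90 with anti-CXCL10 (n = 5), 24.6 ± 2.17 with control antibody plus GSK343 (n = 5) and 9.15 ± 3.38 with control antibody (n = 4). On the log2(FPKM + 1) scale GSK343 differed from no GSK343 by 0.00 ± 0.17 under anti-CXCL10 (SE, 95% interval -0.35 to 0.35) and by 1.39 ± 0.18 under control antibody (1.02 to 1.75), a ratio of mean FPKM of 2.69.

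Trpv2, the calcium channel gene, had 1.85, 3.09, 2.42, 1.91 and 2.15 FPKM with anti-CXCL10 plus GSK343, and 2.93, 2.30, 4.56, 4.32 and 2.16 FPKM with anti-CXCL10. It had 5.79, 7.06, 10.4, 6.66 and 7.36 FPKM with control antibody plus GSK343, and 2.29, 2.99, 2.88 and 1.42 FPKM with control antibody. Again the libraries of control antibody plus GSK343 stood above all others, with replicate 3 the highest. Its mean FPKM was 2.29 ± 0.505 with anti-CXCL10 plus GSK343, 3.25 ± 1.12 with anti-CXCL10, 7.45 ± 1.74 with control antibody plus GSK343 and 2.39 ± 0.717 with control antibody (SD, n as for Alox5ap). The GSK343 difference was -0.35 ± 0.18 under anti-CXCL10 (SE, interval -0.73 to 0.04) and 1.32 ± 0.20 under control antibody (0.91 to 1.73), a 3.11-fold ratio of means for control antibody. Trpv2 had the lowest point estimate of the 4 under anti-CXCL10, where replicates 3 and 4 of anti-CXCL10 alone were high.

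Themis2, the adaptor gene, had 5.02, 5.14, 5.46, 4.83 and 4.89 FPKM with anti-CXCL10 plus GSK343, and 5.05, 5.87, 5.55, 5.15 and 4.03 FPKM with anti-CXCL10. It had 7.47, 10.1, 11.1, 8.28 and 9.24 FPKM with control antibody plus GSK343, and 4.15, 4.66, 4.60 and 3.56 FPKM with control antibody. The libraries of control antibody plus GSK343 were above all others. Those of anti-CXCL10 plus GSK343 were closely grouped at 4.83 to 5.46 FPKM, against 3.56 to 4.66 FPKM with control antibody alone. Mean FPKM was 5.07 ± 0.251 with anti-CXCL10 plus GSK343, 5.13 ± 0.697 with anti-CXCL10, 9.23 ± 1.43 with control antibody plus GSK343 and 4.24 ± 0.505 with control antibody (SD). The GSK343 difference was -0.01 ± 0.10 under anti-CXCL10 (SE, interval -0.23 to 0.21) and 0.96 ± 0.11 under control antibody (0.73 to 1.19), a 2.17-fold ratio of means for control antibody.

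Dock2, the Rac exchange factor gene, had 2.46, 2.85, 2.84, 2.35 and 2.29 FPKM with anti-CXCL10 plus GSK343, and 2.85, 3.23, 2.8, 2.84 and 2.46 FPKM with anti-CXCL10. It had 3.93, 4.96, 7.06, 4.34 and 4.52 FPKM with control antibody plus GSK343, and 1.81, 2.73, 2.47 and 2.1 FPKM with control antibody. The libraries of control antibody plus GSK343 were again above all others, replicate 3 being the highest and replicate 1 the lowest of them. Dock2 averaged, in FPKM, 2.56 ± 0.271 with anti-CXCL10 plus GSK343, 2.84 ± 0.276 with anti-CXCL10, 4.96 ± 1.23 with control antibody plus GSK343 and 2.28 ± 0.405 with control antibody (SD). The GSK343 difference was -0.11 ± 0.12 under anti-CXCL10 (SE, interval -0.36 to 0.14) and 0.85 ± 0.13 under control antibody (0.58 to 1.11), a 2.18-fold ratio of means for control antibody.

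**Figure D2:**
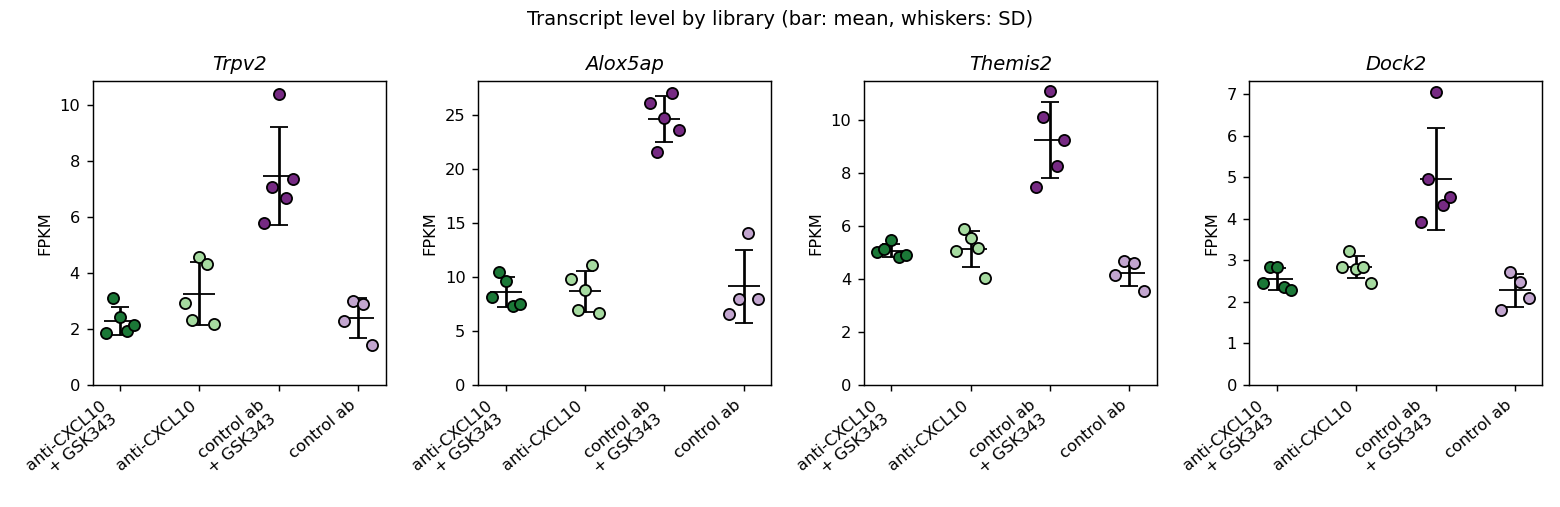
FPKM (vertical axes, starting at 0, a separate scale per gene) of each library (points) in the 4 groups, with the group mean (bar) and SD (whiskers). In each panel the 5 libraries of control antibody plus GSK343 lie above every other library, for Alox5ap at 21.6 to 27.1 FPKM.

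In tumors given GSK343, anti-CXCL10 went with lower levels than control antibody. The difference was -1.42 ± 0.17 for Alox5ap, -1.35 ± 0.18 for Trpv2, -0.74 ± 0.10 for Themis2 and -0.73 ± 0.12 for Dock2 (log2, SE), with no overlap between the groups for any of the 4. Among all tested genes, 4.65% had every library of anti-CXCL10 plus GSK343 below every library of control antibody plus GSK343, and 4.05% had every library of control antibody plus GSK343 above every library of control antibody. These comparisons share the libraries of control antibody plus GSK343, and the absence of overlap is what the genes were chosen for. In tumors without GSK343 the antibodies differed by less: -0.04 ± 0.18 for Alox5ap (interval -0.41 to 0.33), 0.31 ± 0.20 for Trpv2 (-0.10 to 0.72), 0.22 ± 0.11 for Themis2 (-0.01 to 0.45) and 0.23 ± 0.13 for Dock2 (-0.03 to 0.50), each interval holding 0.

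The order of group means below control antibody plus GSK343 was not the same from gene to gene. For Trpv2, Themis2 and Dock2 the anti-CXCL10 group came second, and for Alox5ap the control antibody group did. For Alox5ap and Trpv2 neighbouring means below the top group differed by less than the larger SD of the pair. The means of Themis2 with anti-CXCL10 plus GSK343 and with control antibody differed by 0.826 FPKM against an SD of 0.505. The lowest library of the former had 4.83 FPKM and the highest of the latter 4.66 FPKM. The share of all tested genes with such a gap between these groups was not computed. For Dock2 the means with anti-CXCL10 and with anti-CXCL10 plus GSK343 differed by 0.277 FPKM, with an SD of 0.276 and overlapping libraries.

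**Figure D3:**
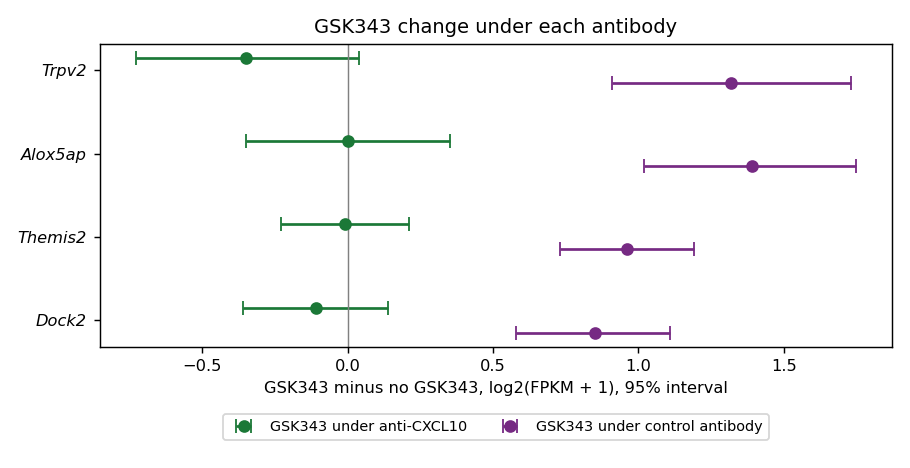
Difference of GSK343 from no GSK343 in log2(FPKM + 1) (horizontal axis) under anti-CXCL10 (green) and under control antibody (purple), as points with 95% intervals from the fit across all genes. The 4 intervals under anti-CXCL10 hold 0 and those under control antibody lie at 0.58 or above.

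The difference between the GSK343 changes under the antibodies, anti-CXCL10 minus control antibody, was -1.67 ± 0.27 for Trpv2 (interval -2.23 to -1.10), -1.38 ± 0.24 for Alox5ap (-1.89 to -0.88), -0.97 ± 0.15 for Themis2 (-1.28 to -0.65) and -0.96 ± 0.17 for Dock2 (-1.32 to -0.59). In this interaction 9 of 14385 genes, or 0.0626%, were lower at a Benjamini-Hochberg adjusted p under 0.05 in limma, 0 were higher, and 1862 had an unadjusted p under 0.05. The 4 genes were taken from among these 9, so their place there is no test of them. The other named genes inside the threshold were Ly9 (-1.43) and Cd48 (-1.10), receptors of the SLAM family, and the myeloid chemokine gene Ccl6 (-1.92), beside 2 gene models without a given name. Just outside were the cholesterol transporter gene Abcg1 (-1.01), Lat2 (-1.01), which encodes an adaptor of mast cells and B cells, the tight junction gene Cldn2 (0.70), the lysosomal protease gene Ctsb (-0.74) and Serpina3f (-1.71).

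How many genes pass in the interaction depends on single libraries. Against 9 with all libraries, 0 passed without replicate 1 or 5 of anti-CXCL10 plus GSK343, replicate 3 of anti-CXCL10, replicate 2 of control antibody plus GSK343 or replicate 5 of control antibody. From 1 to 5 passed without replicate 2 (5) or 4 (3) of anti-CXCL10 plus GSK343, replicate 1 (5) or 4 (1) of anti-CXCL10, replicate 3 (5) or 4 (5) of control antibody plus GSK343, or replicate 1 (1) or 2 (4) of control antibody. By contrast 57 passed without replicate 5 of anti-CXCL10, 476 without replicate 1 of control antibody plus GSK343 and 47 without replicate 3 of control antibody. The size of the difference moved less: in the 19 fits that left out 1 library it lay between -1.76 and -1.51 for Trpv2, between -1.59 and -1.26 for Alox5ap, between -1.03 and -0.90 for Themis2 and between -1.02 and -0.84 for Dock2.

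Cxcl10 itself had 110 ± 17.4 FPKM with anti-CXCL10 plus GSK343, 116 ± 41.5 with anti-CXCL10, 205 ± 66.1 with control antibody plus GSK343 and 96.9 ± 24.5 with control antibody (SD). Ezh2, the gene of the drug's target, stood between 25 and 29.7 FPKM in the 4 groups.

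Leukocyte markers were on average highest in the same group as the 4 genes. The pan-leukocyte score, the mean log2(FPKM + 1) of 20 marker genes, was 3.69 ± 0.18 with anti-CXCL10 plus GSK343, 3.55 ± 0.12 with anti-CXCL10, 4.32 ± 0.35 with control antibody plus GSK343 and 3.50 ± 0.21 with control antibody (SD). The summed FPKM of these 20 markers ranged from 391 to 483 with anti-CXCL10 plus GSK343, from 319 to 482 with anti-CXCL10, from 528 to 979 with control antibody plus GSK343 and from 314 to 435 with control antibody, and no marker was at 0 throughout a group. Of the 20, 11 rose with GSK343 under control antibody at an adjusted p under 0.05 (median change 0.80), among them the phagocyte integrin gene Itgb2 (1.32 ± 0.25, adjusted p = 0.00533) and Spi1 (0.83 ± 0.17, adjusted p = 0.00843). The count was 15, 6 and 6 without control antibody plus GSK343 replicates 1, 2 and 3, 7 and 5 without control antibody replicates 1 and 5, and 0 when the 3 libraries with the highest scores of skeletal muscle markers were left out (median 0.60). Over all tested genes 4.36% rose and 1.11% fell in that comparison, with a median change of -0.03. Among markers of single leukocyte types, those that rose with GSK343 under control antibody at an adjusted p under 0.05 were 14 of 17 for macrophages and monocytes (median 0.91), 15 of 18 for T cells (0.99), 6 of 7 for NK cells (1.19) and 4 of 5 for B and plasma cells (2.89). Fewer passed for dendritic cells (2 of 7, median 0.60), neutrophils (1 of 6, 0.30), mast cells and basophils (0 of 8, 0.81) and eosinophils (0 of 2, 0.62). Without the 3 muscle-rich libraries, which leaves 2 with control antibody plus GSK343, 0 passed in each list. The medians were then, in the order given, 0.84, 0.62, 1.14, 2.93, 0.69, 0.13, 0.26 and 0.92. Without control antibody plus GSK343 replicate 3 the counts were 9 for T cells, 3 for NK cells and 2 for B and plasma cells, and without its replicate 2 they were 3 for NK cells and 2 for B and plasma cells. Without control antibody replicate 1 they were 7 for T cells, 3 for NK cells and 1 for B and plasma cells, without its replicate 2 they were 3 for NK cells and 2 for B and plasma cells, and without its replicate 5 they were 9 for macrophages and monocytes, 9 for T cells and 3 for NK cells. The B and plasma cell score was 2.0 ± 0.66 with anti-CXCL10 plus GSK343, 1.47 ± 0.47 with anti-CXCL10, 4.79 ± 0.67 with control antibody plus GSK343 and 2.43 ± 1.21 with control antibody (SD). A marker was tested if it reached 1 FPKM in 5 libraries, which is the size of the control antibody plus GSK343 group. Markers high in that group alone could thus enter the counts. Mzb1, among the B and plasma cell markers that passed, averaged 2.77 FPKM in that group and 0.465 FPKM or less in the others. In whole tumor RNA, fewer cells of a type and less RNA per cell cannot be told apart.

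Relative to the pan-leukocyte score, the means of Alox5ap and Trpv2 were highest with control antibody plus GSK343, and those of Themis2 and Dock2 were not. For Alox5ap the log2 level minus the score averaged -0.44 ± 0.24 with anti-CXCL10 plus GSK343, -0.30 ± 0.19 with anti-CXCL10, 0.36 ± 0.42 with control antibody plus GSK343 and -0.20 ± 0.38 with control antibody (SD). For Trpv2 it was -1.99 ± 0.21 with anti-CXCL10 plus GSK343, -1.50 ± 0.27 with anti-CXCL10, -1.26 ± 0.21 with control antibody plus GSK343 and -1.76 ± 0.13 with control antibody. For Themis2 the values were -1.09 ± 0.18 with anti-CXCL10 plus GSK343, -0.94 ± 0.15 with anti-CXCL10, -0.98 ± 0.19 with control antibody plus GSK343 and -1.11 ± 0.08 with control antibody. For Dock2 they were -1.86 ± 0.18 with anti-CXCL10 plus GSK343, -1.61 ± 0.14 with anti-CXCL10, -1.77 ± 0.22 with control antibody plus GSK343 and -1.79 ± 0.20 with control antibody. In this quantity the libraries of Trpv2 did not overlap between control antibody plus GSK343 (-1.51 to -0.97) and control antibody (-1.92 to -1.61), and those of Alox5ap did (-0.02 to 1.03 and -0.58 to 0.24). The genes were picked for high levels with control antibody plus GSK343. A higher place there relative to a marker score comes in part from that choice. The share of all tested genes without overlap relative to a marker score was not computed. Whether Trpv2 or Alox5ap rose beyond leukocyte content was not tested. The lack of overlap for Trpv2 also depended on the list. Relative to the macrophage and monocyte score Trpv2 was at -2.76 ± 0.19 with control antibody plus GSK343 and -3.23 ± 0.06 with control antibody, without overlap. Alox5ap was at -1.14 ± 0.27 and -1.67 ± 0.40 in the same order, with overlap. Against the T cell score Trpv2 was at -0.28 ± 0.23 and -0.60 ± 0.30, and Alox5ap at 1.34 ± 0.54 and 0.95 ± 0.32, both with overlap. Relative to the NK cell score Trpv2 was at -0.41 ± 0.37 with control antibody plus GSK343 and -0.50 ± 0.29 with control antibody, and Alox5ap at 1.21 ± 0.66 with control antibody plus GSK343 and 1.06 ± 0.15 with control antibody, and the libraries of both genes overlapped. Relative to the B and plasma cell score both means were lower with GSK343 under control antibody: Trpv2 at -1.73 ± 0.48 with control antibody plus GSK343 and -0.69 ± 1.36 with control antibody, and Alox5ap at -0.11 ± 0.74 with control antibody plus GSK343 and 0.86 ± 0.95 with control antibody, with overlapping libraries.

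Skeletal muscle markers were also high in part of the libraries in which the 4 genes were high. The summed FPKM of the 17 muscle markers in the table ranged from 26.2 to 138 with anti-CXCL10 plus GSK343, from 15.8 to 354 with anti-CXCL10, from 64.1 to 2700 with control antibody plus GSK343 and from 30.9 to 123 with control antibody, and none was at 0 throughout a group. The highest muscle scores of all 19 libraries were those of control antibody plus GSK343 replicates 4 (6.80), 3 (4.85) and 5 (4.69). Without these 3 libraries the GSK343 difference under control antibody was 1.34 ± 0.25 for Alox5ap, 1.15 ± 0.25 for Trpv2, 0.89 ± 0.14 for Themis2 and 0.73 ± 0.14 for Dock2 (SE, 2 and 4 libraries). The interaction was then -1.34 ± 0.30, -1.50 ± 0.31, -0.90 ± 0.18 and -0.84 ± 0.17 in the same order of genes, and the number of genes called in it was 1. Hepatoma markers were lower in that group, with a score of 5.61 ± 0.17 with control antibody plus GSK343 and 6.24 ± 0.31 with control antibody, and their part in the levels of the 4 genes was not tested.

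Within groups the 4 genes did not all vary together. The deviations of each library from its group mean in log2(FPKM + 1), which do not set the group differences the genes were picked for but do enter their error, were compared over the 19 libraries by Pearson's r. Themis2 and Dock2 went together most (r = 0.81), followed by Trpv2 with Themis2 (0.66), Trpv2 with Dock2 (0.59) and Trpv2 with Alox5ap (0.51), whereas r was 0.25 for Alox5ap with Dock2 and 0.17 for Alox5ap with Themis2. All these values share libraries and their depth, which is unknown. In control antibody plus GSK343, replicate 3 was the highest and replicate 1 the lowest for Trpv2, Themis2 and Dock2, but replicate 4 was the highest and replicate 2 the lowest for Alox5ap. The pan-leukocyte score of those libraries was also highest in replicate 3 (4.66) and lowest in replicate 1 (3.74).

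Deviations of the marker scores gave each gene a different closest list. For Dock2 it was the T cell list (r = 0.80) and for Trpv2 the macrophage and monocyte list (0.78). For Themis2 it was the pan-leukocyte list (0.74), with NK cell (0.72), macrophage (0.70) and neutrophil (0.70) lists close behind. Alox5ap had its highest values with the B and plasma cell list (0.60) and the endothelial list (0.56), with 0.22 for the pan-leukocyte list. B and plasma cell markers were scored from 5 genes only, as 6 of 13 listed were in the table. With the hepatoma list r was negative for all 4 (-0.26 to -0.38), and with the skeletal muscle list it was between 0.10 and 0.39.

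**Figure D4:**
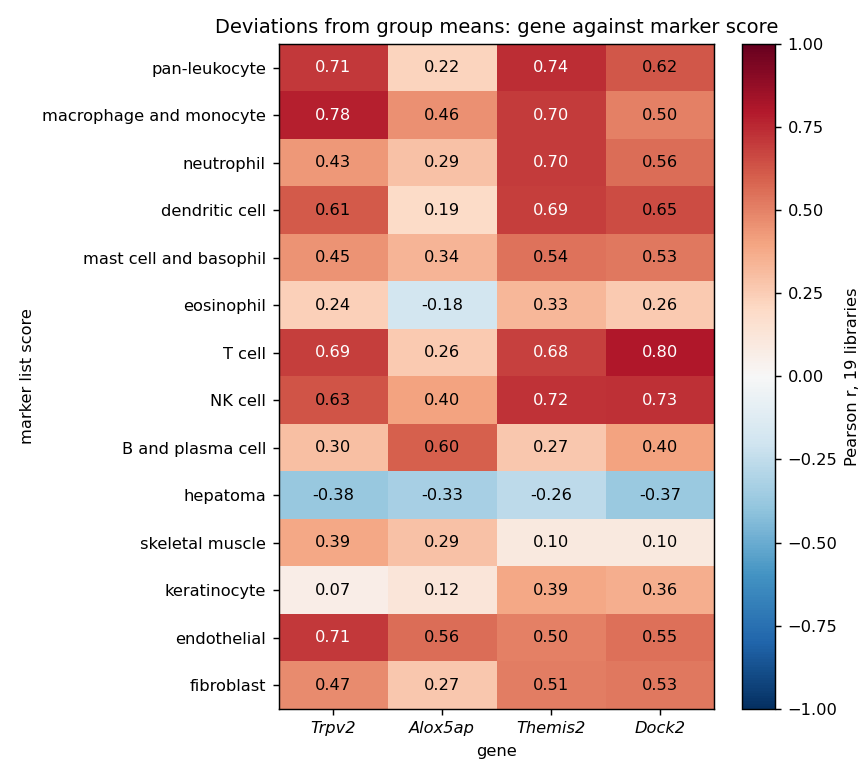
Pearson's r (colour scale and printed value, over 19 libraries) between the within-group deviations of each gene (columns) and of each marker score (rows). Themis2, Dock2 and Trpv2 have values of 0.62 or more with the pan-leukocyte score, and Alox5ap has 0.22.

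Among 8313 genes with a mean of at least 5 FPKM, those most like each gene in these deviations also differed. For Trpv2 they were the blood cell hexokinase gene Hk3 (r = 0.91), the cytokine receptor kinase gene Jak3 (0.89), the cytokine receptor gene Il12rb1 (0.88), Nub1 (0.88) and the peptide-loading gene Tapbp (0.87). For Themis2 they included the myeloid lectin gene Clec4a3 (0.88), the TNF receptor gene Tnfrsf1b (0.86) and Nckap1l (0.84), a subunit of the WAVE actin complex of blood cells. Dock2 went most with the matrix genes Sparcl1 (0.86), Col6a1 (0.86) and Col6a2 (0.83), the lymphocyte gene Ms4a4b (0.85) and the lysosomal gene Lamp2 (0.83). Alox5ap went most with the complement gene C4b (0.83), the chemokine gene Ccl7 (0.82), the glucose transporter gene Slc2a1 (0.81), Fstl3 (0.77) and the phosphoglucomutase gene Pgm2 (0.77). The 95th percentile of r over the 8313 genes was 0.59 for Trpv2, 0.47 for Alox5ap, 0.58 for Themis2 and 0.58 for Dock2.

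Genes that work in the same pathways as the 4 were taken from 10 lists with a measured gene, 91 genes in all. With GSK343 under control antibody 26 of the 91 rose and 0 fell (limma, adjusted p under 0.05), against 4.36% and 1.11% of all tested genes, and their median change was 0.31 against -0.03. Under anti-CXCL10 0 of the 91 passed limma's test (2 at an unadjusted p under 0.05, median 0.02). Over all tested genes 0.0% passed in that comparison, with 418 at an unadjusted p under 0.05. With GSK343 given, 32 of the 91 were lower and 1 was higher under anti-CXCL10 than under control antibody (limma, adjusted p under 0.05). Over all tested genes 955 were lower and 501 higher in that comparison. Without the 3 libraries high in muscle markers 8 of the 91 passed in it. In the interaction 0 of the 91 passed (34 at an unadjusted p under 0.05, median -0.27 against 0.04 for all tested genes). With all libraries a difference between the antibodies in the GSK343 change is therefore not shown for any of them. Without control antibody plus GSK343 replicate 1, 22 passed in the interaction, all lower. The interaction count was 3 without control antibody replicate 3, 3 without anti-CXCL10 replicate 5 and 1 without anti-CXCL10 replicate 2. In the other 15 fits that left out a library it was 0. Without replicate 1 or 5 of control antibody 11 and 10 of the 91 rose, without replicates 1, 2 and 3 of control antibody plus GSK343 41, 16 and 14, and without the 3 libraries high in muscle markers 1, with a median of 0.14. With 1 library left out at a time, 10 of the 26 passed in all 19 fits (among them Vav1, Lat2, Cyth4, Fgr, Syk, Rac2, Rhoh, Nckap1l and Tbxas1), and the others in at least 12. In the sentences on these genes, levels with and without GSK343 are those under control antibody.

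Of the leukotriene synthesis enzymes around Alox5ap, 2 of 9 rose with GSK343 under control antibody. Pla2g4a, the phospholipase that releases arachidonic acid, had 5.56 ± 1.95 FPKM with and 2.52 ± 0.288 FPKM without GSK343 (0.83 ± 0.20, adjusted p = 0.0194). Dpep2, a dipeptidase that trims leukotrienes, had 4.10 ± 0.58 FPKM with and 1.87 ± 0.965 FPKM without GSK343 (0.88 ± 0.19, adjusted p = 0.0122). Alox5, the lipoxygenase that FLAP serves, was low in every group, with 1.56 ± 1.03 FPKM with and 0.762 ± 0.777 FPKM without GSK343, and did not pass (0.53 ± 0.33, adjusted p = 0.418). Lta4h, the hydrolase that makes the neutrophil attractant leukotriene B, had 35.2 ± 2.09 FPKM with and 33 ± 0.643 FPKM without GSK343 (0.09 ± 0.07, adjusted p = 0.566). Ltc4s, the synthase of the cysteinyl leukotrienes, had 1.56 ± 0.755 FPKM with and 0.925 ± 0.883 FPKM without GSK343 (adjusted p = 0.496).

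Of 3 leukotriene receptor genes Cysltr2 rose (0.74 ± 0.19, adjusted p = 0.0287), at 1.81 FPKM with and 0.622 FPKM without GSK343. Ltb4r1 had 2.57 ± 1.6 FPKM with and 0.767 ± 0.393 FPKM without GSK343 and did not pass (0.92 ± 0.28, adjusted p = 0.0691). Of 10 enzymes that make other products of arachidonic acid, Tbxas1, the thromboxane synthase gene, rose (12.2 ± 2.98 FPKM with GSK343 and 5.60 ± 1.73 without it, 1.01 ± 0.20, adjusted p = 0.00839), as did the lipoxygenase gene Alox15 (1.28 ± 0.35, adjusted p = 0.0372). The cyclooxygenase genes Ptgs1 (0.39, adjusted p = 0.329) and Ptgs2 (0.82, adjusted p = 0.145) did not pass. Among the genes of these 3 lists Tbxas1 alone kept its call in all 19 fits that left out 1 library.

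Of the other DOCK genes, 2 of 9 rose with GSK343 under control antibody. They were Dock10 (5.51 ± 1.23 FPKM with GSK343 and 3.05 ± 0.543 without it, 0.67 ± 0.16, adjusted p = 0.0204) and Dock11 (0.67 ± 0.18, adjusted p = 0.036), both exchange factors for the GTPase CDC42. Dock8, whose loss causes an immunodeficiency in people, had 3.55 ± 0.756 FPKM with and 2.70 ± 0.274 FPKM without GSK343 (0.28 ± 0.11, adjusted p = 0.171), and Dock1, which is broadly expressed, had 10.2 ± 0.846 FPKM with and 11.8 ± 1.53 FPKM without GSK343 (-0.19 ± 0.15, adjusted p = 0.54). Among the partners of DOCK2, the blood cell GTPase gene Rac2 rose (27.9 ± 7.67 FPKM with and 13.7 ± 2.0 FPKM without GSK343, 0.94 ± 0.18, adjusted p = 0.0052), and so did Rhog (0.35 ± 0.09, adjusted p = 0.0299). The ubiquitous Rac1 had 237 ± 13.8 FPKM with and 240 ± 16.8 FPKM without GSK343 (-0.02 ± 0.07, adjusted p = 0.936), and Elmo1, the scaffold that binds DOCK2, had 5.71 ± 0.899 FPKM with and 4.43 ± 0.591 FPKM without GSK343 (0.30 ± 0.11, adjusted p = 0.133).

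Of 14 regulators of actin in leukocytes 7 rose. They included Cyth4, an exchange factor of ARF GTPases (0.55 ± 0.08, adjusted p = 0.00229), Rhoh (0.69 ± 0.13, adjusted p = 0.0052), Nckap1l (0.80 ± 0.15, adjusted p = 0.00655), Hcls1, a cortactin relative of blood cells (1.0 ± 0.22, adjusted p = 0.0124), Coro1a (0.81 ± 0.18, adjusted p = 0.0151) and Was, the Wiskott-Aldrich syndrome gene (0.63 ± 0.17, adjusted p = 0.0355). The Arp complex genes Arpc2 (0.03 ± 0.06) and Arpc1b (-0.13 ± 0.20), which all cells use, did not pass. Of 7 other exchange factors of Rac and related GTPases 3 rose, led by Vav1 of blood cells (10.4 ± 1.93 FPKM with GSK343 and 4.53 ± 0.745 without it, 1.03 ± 0.15, adjusted p = 0.00185), while its broadly expressed relative Vav2 had 5.0 ± 0.387 FPKM with and 5.80 ± 1.41 FPKM without GSK343 (-0.16 ± 0.14, adjusted p = 0.601).

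Around Themis2, 7 of 16 adaptors and kinases of antigen receptor signaling rose. They included Vav1, Lat2 (16.9 ± 2.62 FPKM with GSK343 and 7.71 ± 0.838 without it, 1.03 ± 0.14, adjusted p = 0.00185), the Src family kinase gene Fgr (0.92 ± 0.14, adjusted p = 0.00241), the kinase gene Syk (0.72 ± 0.13, adjusted p = 0.0052), the lipid phosphatase gene Inpp5d (0.55 ± 0.14, adjusted p = 0.031) and the phospholipase gene Plcg2 (0.67 ± 0.18, adjusted p = 0.0384). Lat2 was the 1 gene of the 91 that passed without the libraries high in muscle markers. Themis, the T cell relative of Themis2, had 1.43 ± 0.839 FPKM with and 0.666 ± 0.214 FPKM without GSK343 (0.50 ± 0.18, adjusted p = 0.141), and Grb2, the adaptor that THEMIS proteins bind, had 29.4 ± 11.0 FPKM with and 32.0 ± 8.72 FPKM without GSK343 (-0.15 ± 0.32, adjusted p = 0.861).

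The relatives of Trpv2 could not be set beside it, since Trpv1, Trpv3, Trpv4, Trpv5 and Trpv6 were not analysed here. Of 15 other calcium, potassium and proton channel genes of leukocytes and their partners, 1 rose: Hvcn1, the phagocyte proton channel, with 8.64 ± 3.82 FPKM with GSK343 and 3.30 ± 0.719 without it (1.05 ± 0.27, adjusted p = 0.0274). The calcium entry genes Orai1 (0.08 ± 0.21, adjusted p = 0.881) and Stim1 (-0.09 ± 0.13, adjusted p = 0.79) did not pass, nor did Trpm2 (0.54 ± 0.22, adjusted p = 0.187). The median change of this list was 0.06, against 0.48 for the adaptors and kinases near Themis2, 0.50 for the leukotriene synthesis enzymes and -0.01 for the other DOCK genes. Without the 3 libraries high in muscle markers the medians of these 4 lists were 0.09, 0.31, 0.13 and -0.21.

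**Figure D5:**
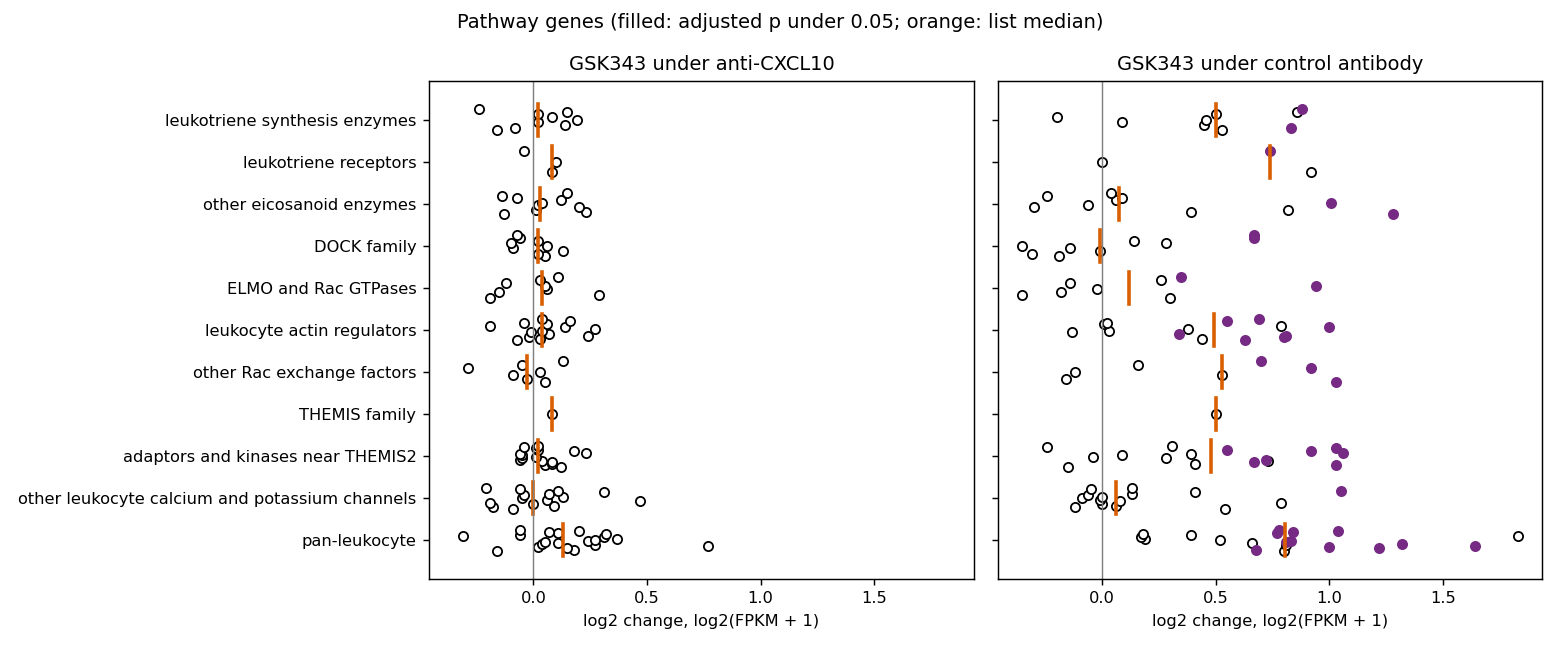
GSK343 change in log2(FPKM + 1) (horizontal axes) of each tested gene (points) of the 10 pathway lists and of the pan-leukocyte markers (rows), under anti-CXCL10 (left) and under control antibody (right); filled points passed limma at an adjusted p under 0.05 and orange bars are list medians. No point is filled under anti-CXCL10, while 26 of the 91 pathway genes and 11 of the 20 pan-leukocyte markers are filled under control antibody.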

How the data were processed

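Poly-A RNA of 19 tumor libraries was measured, out of 20 samples in the labels. The authors deposited normalized values per gene, which were read as FPKM from the values themselves, since no label names the unit. The submitters' processing notes name the builds GRCm38 and mm10 and the tools StringTie 1.3.3b, HTSeq 0.6.0, HISAT2 2.1.0, TopHat2 2.1.0 and Trimmomatic 0.33, with no role or order. Sequencing depth is unknown, no whole-read steps were found, and FPKM summed to 533606 to 629679 per library, so no counting error is given.

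The 14646 deposited rows gave 14633 genes after rows of the same ID were added, and 14385 reached 1 FPKM in 5 or more libraries. A gene could pass that filter through a single group of 5 libraries, which bears on the counts of marker and pathway genes that rose. Values were fitted as log2(FPKM + 1), which understates changes of low genes, with limma 3.58.1 (R 4.3.3, statmod 1.5.0; intensity trend, robust moderation, 4 group means, all 19 libraries) and Benjamini-Hochberg adjustment. The fit was also run on simulated data with independent values per gene and library. Such data hold no shared differences in cell content, so the run says nothing on those. The members, lists, motifs and settings were chosen with earlier results of these data known. Named genes are the members, the genes inside and the 5 just outside the interaction's threshold, 5 per member by within-group correlation, pathway genes that passed (up to 6 a list by p) or whose role is stated, and Cxcl10 and Ezh2. Alb, Afp, Ptprc, Itgb2 and Spi1 are listed markers named after their values were seen. Marker scores are means of log2(FPKM + 1). Some genes that meet the naming rule are counted but not reported here.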

Additional observations from a re-analysis of the deposited data

Results flagged for a closer look

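Among the genes past the interaction's threshold in limma, 7 have a given name and a smaller GSK343 change under anti-CXCL10 than under control antibody. On the log2(FPKM + 1) scale the differences were -1.92 for Ccl6, -1.67 for Trpv2, -1.43 for Ly9, -1.38 for Alox5ap, -1.10 for Cd48, -0.97 for Themis2 and -0.96 for Dock2. Trpv2, Alox5ap, Themis2 and Dock2 were picked for this difference, so for them the values are a description and no test. In no group did a library of the 4 genes stand apart by Dixon's test in 16 checks; the nearest was Alox5ap in control antibody replicate 3 (14.1 FPKM, a gap of 0.815 of the group's range, with a critical value of 0.829).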

How the results depend on the processing

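Of 226 recomputed GSK343 changes under control antibody and interactions of the 4 genes, 223 moved by less than 1 SD and none changed sign. The exceptions came with a pseudocount of 0.1 FPKM: the interaction was -2.07 for Trpv2 and -1.22 for Dock2, and the change of Dock2 under control antibody was 1.08. A move of less than 1 SD can still exceed the SE. With that pseudocount the change of Trpv2 under control antibody was 1.62, against 1.32 ± 0.20 (SE) as reported. Dock2 gave no value with a filter of at least 5 FPKM in at least 5 libraries.

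Counts of genes depended more on the setting. The interaction called 9 genes as reported, 0 with the muscle score as a covariate, 1 without the 3 libraries high in muscle markers, and 0 to 476 when 1 library was left out. GSK343 under control antibody called 787, and 6 with the covariate, 15 without the 3 libraries, 233 in a fit of the 2 groups alone, and 299 to 1389 with 1 library left out (299 and 319 without control antibody replicates 1 and 5, and 1389, 453 and 375 without control antibody plus GSK343 replicates 1, 2 and 3). Anti-CXCL10 with GSK343 called 1456, and 119 with the covariate, 497 without the 3 libraries and 837 to 1829 with 1 left out. Anti-CXCL10 without GSK343 called 2, and 0 without the 3 libraries, 1 in a fit of the 2 groups alone and 0 to 2 with 1 left out. GSK343 under anti-CXCL10 called 0, and 0 to 1 with 1 left out (1 without anti-CXCL10 replicate 1). Fewer libraries remain in some of these fits; other causes were not tested.

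With the replicate number as a block the interaction called 57 genes, and anti-CXCL10 without GSK343 called 0; the interactions of the 4 genes were -1.66 for Trpv2, -1.36 for Alox5ap, -0.98 for Themis2 and -0.98 for Dock2. Of the 91 pathway genes it called 3 in the interaction. The labels do not say that a number marks a shared animal or batch, and the libraries were treated as unpaired in the main fit. Same-numbered libraries were more often alike: 12 of 27 such pairs had a correlation of deviations over 0.1 (median 0.0598, range -0.199 to 0.318), against 15 of 108 pairs with other numbers (median -0.0219). The keratinocyte marker score was highest in replicate 2 of every group (3.70 with anti-CXCL10 plus GSK343, 4.31 with anti-CXCL10, 4.53 with control antibody plus GSK343 and 5.25 with control antibody). A shared origin of same-numbered libraries was not tested.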

Other observations

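The column headers carry a running number, from 1 to 10 over the libraries of anti-CXCL10 and anti-CXCL10 plus GSK343, and again from 1 to 10 over those of control antibody and control antibody plus GSK343. The labels do not say what it counts. If it marks separate runs, a comparison between the antibodies cannot be told apart from them, while GSK343 against no GSK343 lies within each numbering. In both numberings the libraries without GSK343 have numbers from 1 to 5 and those with GSK343 from 6 to 10. Replicates 1 to 5 of control antibody plus GSK343 carry the numbers 8, 9, 10, 6 and 7, while in the other groups the numbers follow the replicate order. Pairing libraries by this header number would thus differ from the pairing by replicate number used for the block. If the number marks an order or position of processing, GSK343 cannot be told apart from it.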
